A study of Mus musculus with 9 samples.

Results

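Matricellular proteins are secreted into the extracellular matrix, where they alter how cells attach and signal more than they bear load. In all 9 genes were followed over the 9 arrays: Thbs1 and Thbs2 (thrombospondins), Postn (periostin), Sparc (osteonectin), Tnc (tenascin C), Spp1 (osteopontin), Fn1 (fibronectin), and Mfap2 and Mfap4 (microfibril-associated proteins). A gene was taken up when a probe carried its symbol in the deposited description or its RefSeq accession. This gave 8 genes with 1 probe each, out of 15490 named genes on 20868 probes. Thbs1 had no probe by this rule.

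In the series, RNA from 9 samples of mouse cells was hybridised, once each, to single-colour Agilent arrays. The study addresses how far fibroblasts reprogrammed by defined factors come to resemble embryonic stem (ES) cells. The 4 induced (iPS) clones came from mouse embryonic fibroblasts (MEF) that carry a bgeo reporter and drug-resistance cassette knocked into Fbx15, a gene that ES cells express. Retroviruses brought in 3 factors (2 clones), 4 factors (1 clone) or 10 factors (1 clone), and the cells were kept in ES culture conditions and under G418 for 16 days. The labels used here do not name the factors, and each iPS sample is a single clone. The ES cells lacked Fbx15 and were grown on STO cells, a mouse fibroblast line. There were 4 fibroblast-derived samples. Unselected MEF were Fbx15 bgeo-KI MEF that received 4 factors and were not selected with G418. The immortalised MEF line came from wild-type MEF that became immortal in culture and then received a retroviral transgene. NIH3T3 HRasV12 cells are an established mouse fibroblast line transformed with an active HRas mutant. MEF came from Fbx15-null embryos at stage E13.5.

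Fibroblasts secrete fibronectin as soluble dimers and pull it into fibrils through integrins, mainly the pairing of the alpha 5 and beta 1 subunits. Thrombospondins, tenascins, periostin and osteonectin bind to that network, to collagens and to cell-surface receptors, and several of them loosen cell attachment or bind growth factors. Mfap2 and Mfap4 decorate fibrillin microfibrils and elastic fibres, the scaffold on which latent TGF-beta is stored. Many of these genes are expressed by mesenchymal cells and are used as signs of the fibroblast state.

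All levels below are log2 signal relative to the 75th percentile of the array's probes, so 0 is a probe at that percentile. The 75th percentile itself was between 167 and 300 signal units, and 52.4% to 59.6% of probes were well above background by the scanner program's own call. Values were floored at -4.78, below which signals have no order. Each probe has its own brightness, so levels are compared between samples and never between genes. With 1 hybridisation for each sample, a p-value here reflects only how these samples scatter, and in bulk RNA fewer cells of a type cannot be told apart from less RNA per cell. The arrays were read in 4 scan sessions per the file headers, with MEF, ES and clones of 4 and 10 factors in the first, the 3-factor clones in the second, NIH3T3 HRasV12 cells with the immortalised line in the next, and unselected MEF in the last. The cell labels were set against marker genes. Summed linear signal of the fibroblast markers (10 of 11 with a probe) was 7.65 to 19.6 times the array's 75th percentile in the clones and 15.5 in ES, against 122 to 594 in the fibroblast-derived samples. Of these 10 markers, 9 were well above background in every clone and in ES. The exception, Lum, was also not well above background in the immortalised MEF line. Summed signal of 7 pluripotency markers was 35 to 74.5 in the clones and 499.8 in ES, against 0.0653 to 0.684 in the fibroblast-derived samples. Well above background were 4 to 7 of them in the clones, 7 in ES and 1 to 3 in the fibroblast-derived samples. In 3-factor clones 1 and 2 and in the 4-factor clone the sum came mainly from Tdh (4.93, 5.07 and 5.97). Sox2 was not well above background in the 3-factor clones. Zfp42 was well above background in the 4- and 10-factor clones (-3.06 and -0.84) and in ES (7.03), and in no 3-factor clone.

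The clones were first set against the 4 fibroblast-derived samples. Thbs2, Tnc, Sparc and Spp1 fell in the iPS clones. Their differences were -5.73, -3.89, -2.98 and -1.86 on the log2 scale, which are 53.2-fold, 14.9-fold, 7.86-fold and 3.64-fold lower levels in the clones than in the fibroblast-derived samples (n = 4 each). In these 4 genes every clone lay below every fibroblast-derived sample. Postn, Mfap2, Mfap4 and Fn1 did not pass the test. Thus 4 of 8 members were called lower and 0 higher, where limma called 4.73% of all 12938 tested probes lower and 4.19% higher. Groups without overlap, with the clones below, occurred in 9.72% of those probes. The median difference of the 8 members was -3.78, against 0.02 over all tested probes. Mfap2 and Mfap4 entered the test through the fibroblast-derived samples alone, being near or at the floor in the clones, so the median is given as a description. Of 10 fibroblast markers tested, 5 were called lower in the clones and 0 higher. Of 3 smooth muscle markers tested, Acta2 was called lower, while Tagln and Cnn1 were high in unselected MEF and MEF alone (summed signal of 4 genes 4.43 to 7.98 in the clones, against 8.75 to 268 in the fibroblast-derived samples). Of 6 primitive and parietal endoderm markers tested, 2 were called lower, Lamb1 and Dab2. Summed signal of the 10 listed genes was 3.69 to 7.57 in the clones, against 11.2 to 22.5 in the fibroblast-derived samples. Sox7, Sox17 and Foxa2 were well above background in no fibroblast-derived sample, and Sox17 and Foxa2 in no clone. The part of these markers in the members' differences was not tested.

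**Figure D1:**
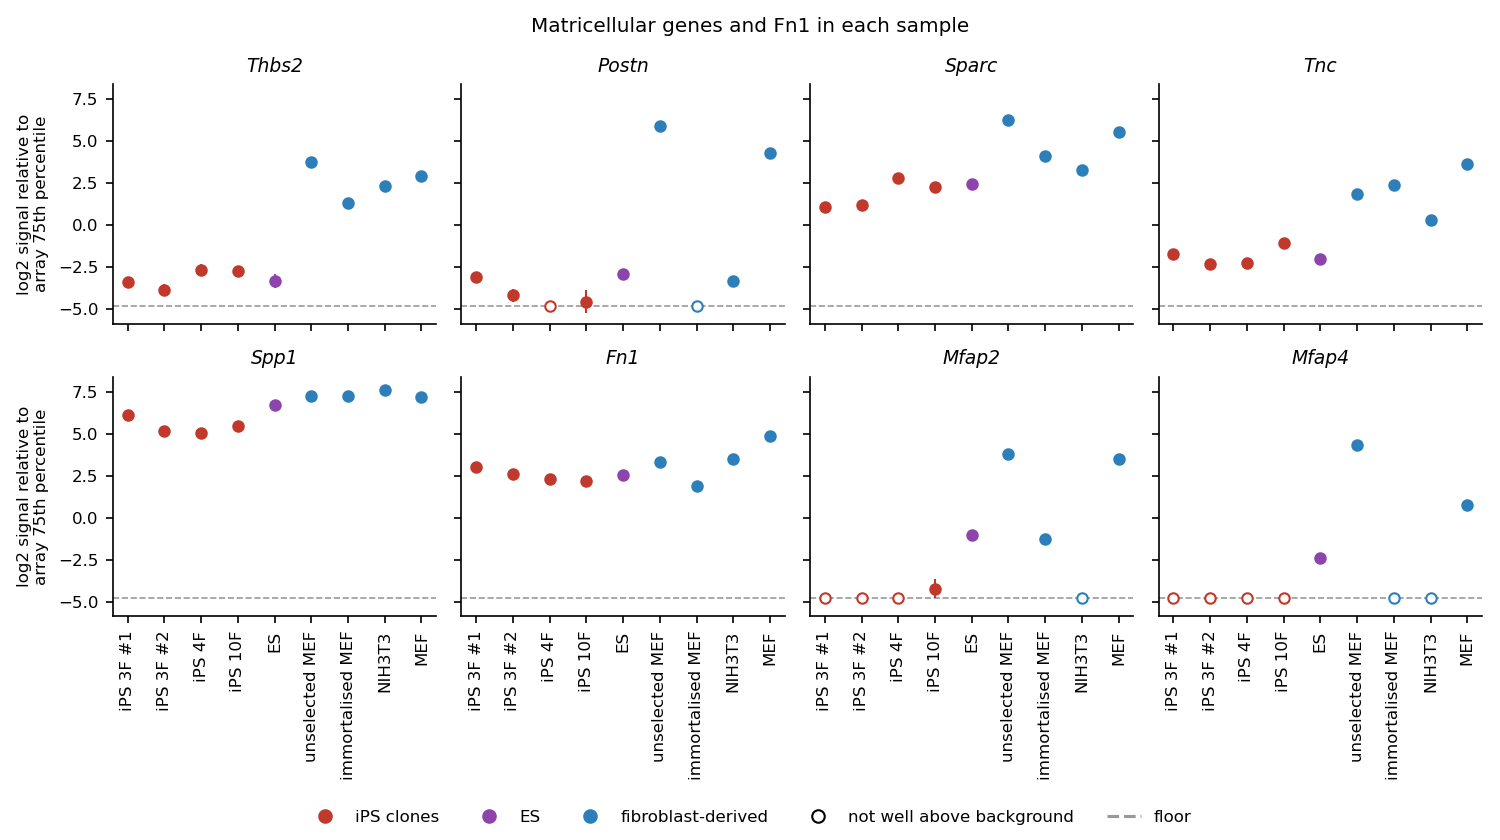
Log2 signal relative to the array's 75th percentile (vertical axes) of 8 genes in the 9 samples (horizontal axes): iPS clones in red (3F, 4F and 10F give the number of factors), ES in purple, fibroblast-derived samples in blue, error bars the scanner program's own error, open circles not well above background and the dashed line the floor at -4.78. Thbs2 lies between -3.83 and -2.66 in the clones and between 1.33 and 3.75 in the fibroblast-derived samples, while Fn1 overlaps between them.

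Among the counter-adhesive glycoproteins, Thbs2 limits vessel growth and binds matrix metalloproteinase 2 for clearance through the receptor Lrp1. It was at -3.35 and -3.83 in 3-factor clones 1 and 2, -2.66 in the clone made with 4 factors and -2.73 in that made with 10. It was at 3.75 in unselected MEF, 1.33 in the immortalised MEF line, 2.33 in NIH3T3 HRasV12 cells and 2.96 in MEF. The clones thus stood as one low group next to ES (-3.31), with no overlap with the fibroblast-derived samples, and the difference was -5.73 ± 0.52 (SE; limma adjusted p = 0.00156). Thbs2 was well above background on all 9 arrays, and its call was lost in 1 of 20 alternative settings, the one restricted to the first scan session.

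Tnc encodes a multi-armed glycoprotein of embryonic mesenchyme and wounds that weakens the grip of cells on fibronectin. Its levels were -1.71 and -2.32 in 3-factor clones 1 and 2, -2.26 in the clone made with 4 factors and -1.05 in that made with 10. Fibroblast-derived samples had 1.85 in unselected MEF, 2.39 in the immortalised MEF line, 0.34 in NIH3T3 HRasV12 cells and 3.65 in MEF. The highest clone (10 factors) still lay below the lowest fibroblast-derived sample (NIH3T3 HRasV12), and the difference was -3.89 ± 0.66 (SE; limma adjusted p = 0.0129). Without 3-factor clone 2 the adjusted p was 0.055.

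Sparc encodes a calcium- and collagen-binding glycoprotein that rounds cells up. In the clones it was at 1.12 and 1.20 in 3-factor clones 1 and 2, 2.80 in the clone made with 4 factors and 2.30 in that made with 10. The fibroblast-derived samples were at 6.28 in unselected MEF, 4.16 in the immortalised MEF line, 3.30 in NIH3T3 HRasV12 cells and 5.58 in MEF. The 3-factor clones were the lowest, and the 4-factor clone came within 0.50 of NIH3T3 HRasV12 cells. The difference was -2.98 ± 0.70 (SE; limma adjusted p = 0.0376). This call did not hold without any 1 of the 4 clones, MEF or unselected MEF (adjusted p 0.0532 to 0.123), while the difference stayed between -3.29 and -2.49. In all, the call was lost in 10 of 20 alternative settings.

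Spp1 encodes osteopontin, a phosphorylated integrin and CD44 ligand known from bone, macrophages and many cultured cells. It was at 6.11 and 5.17 in 3-factor clones 1 and 2, 5.06 in the clone made with 4 factors and 5.44 in that made with 10. It was at 7.24 in unselected MEF, 7.21 in the immortalised MEF line, 7.59 in NIH3T3 HRasV12 cells and 7.19 in MEF. The fibroblast-derived samples spanned only 0.40 on the log2 scale, and all 4 clones lay below them. The difference was -1.86 ± 0.27 (SE; limma adjusted p = 0.00708), the smallest among the called members. Macrophage markers had a summed signal of 0.495 to 0.837 in the clones, against 0.391 to 7.63 in the fibroblast-derived samples. Of the 8 macrophage markers, 2 to 3 were well above background in the clones and 2 to 6 in the fibroblast-derived samples. Unselected MEF had the most, with Lyz2 at 2.04 and Adgre1 at 0.16. Ptprc and Itgam were not well above background on these 8 arrays. The part of macrophages in the Spp1 levels was not tested. Of 3 bone markers, Runx2 and Sp7 were well above background on all 8 arrays and Ibsp on none. Their summed signal was 0.608 to 2.53 in the clones, against 1.26 to 2.91 in the fibroblast-derived samples.

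Postn encodes a secreted protein of periosteum, tendon and wounds that helps to cross-link collagen. It was at -3.05 and -4.17 in 3-factor clones 1 and 2, -4.78 in the clone made with 4 factors and -4.54 in that made with 10, where the 4-factor clone was not well above background. In the fibroblast-derived samples it was at 5.93 in unselected MEF, -4.78 in the immortalised MEF line, -3.28 in NIH3T3 HRasV12 cells and 4.30 in MEF, where the immortalised line was not well above background. High signal was thus found in unselected MEF and MEF, and the remaining fibroblast-derived samples overlapped the clones. The difference was -4.68 ± 2.34 (SE; limma adjusted p = 0.25), and the SD over fibroblast-derived samples was 5.36.

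Fn1 encodes fibronectin, the adhesive glycoprotein that the other members bind around. Its levels in the clones were 3.03 and 2.60 in 3-factor clones 1 and 2, 2.29 in the clone made with 4 factors and 2.19 in that made with 10. The levels in fibroblast-derived samples were 3.34 in unselected MEF, 1.91 in the immortalised MEF line, 3.47 in NIH3T3 HRasV12 cells and 4.83 in MEF. The immortalised line was the lowest of all 9 samples and MEF the highest, so the groups overlapped. The difference was -0.86 ± 0.56 (SE; limma adjusted p = 0.362).

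Mfap2, which binds fibrillin and TGF-beta family ligands, was well above background in the 10-factor clone alone among the clones (-4.22), and the other clones were at the floor. It was at 3.78 in unselected MEF, -1.27 in the immortalised MEF line, -4.78 in NIH3T3 HRasV12 cells and 3.51 in MEF, where NIH3T3 HRasV12 cells were not well above background. ES cells had -1.06, close to the immortalised line. The difference from the fibroblast-derived samples was -4.95 ± 1.79 (SE; limma adjusted p = 0.127). Without NIH3T3 HRasV12 cells it was -6.65 with an adjusted p of 0.0262.

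Mfap4, a fibrinogen-related protein of elastic fibres, was not well above background in any clone. It was at 4.33 in unselected MEF and 0.76 in MEF, and was not well above background in the immortalised line or in NIH3T3 HRasV12 cells. ES had -2.40. The floored means differed 12.7-fold, lower in the clones (limma adjusted p = 0.271). This is no bound, since arrays of both groups were at the floor. Where every array of the dim side was at the floor and every array of the bright side was measured, a fold is given below as "at least", with the dim side at the floor.

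The scan sessions divide the groups, and the first alone holds both clones and a fibroblast-derived sample. With the scan as a block, the difference comes from the 4- and 10-factor clones against MEF. It was -5.65 for Thbs2 (limma adjusted p = 0.0168), -3.03 for Sparc (0.0418), -8.97 for Postn (0.0181) and -5.55 for Mfap4 (0.00179). The values of Mfap4 in both these clones and of Postn in the 4-factor clone were at the floor, so the sizes and p-values of these genes rest on it. The adjusted p was 0.0749 for Tnc (-5.31) and 0.108 for Spp1 (-1.94). Within the first session, where 2 clones stand against 1 MEF array, the differences were the same and no probe on the array passed, with 2951 probes at an unadjusted p under 0.05. The other sessions held samples of 1 group only.

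Promoter sequence was looked up for the members that moved together. RefSeq promoter windows (build GRCm38.p6, 250 bases before to 50 after a transcript start) were found for 6 of the 9 genes: Thbs2, Postn, Sparc, Tnc, Spp1 and Mfap2. Capitals mark matches to short motifs, searched on both strands. The TATA box letters TATAAA were in 13.6% of all 32851 windows. CCAAT was in 37.4% of them. The GC box letters GGGCGG were in 35.7%. An AP-1 site, TGANTCA, was in 7.81%. The cAMP response element TGACGTCA was in 1.79%. A TEAD site, GGAATG, was in 14.7%. The octamer ATGCAAAT was in 1.74%. The CArG box was in 1.63%. No match in the members' windows overlapped another. The windows of the called members are shown because they fell together in the clones. Thbs2 is on the minus strand (chr17:14694213-14694512), Tnc on the minus strand (chr4:64046966-64047265), Sparc on the minus strand (chr11:55420031-55420330) and Spp1 on the plus strand (chr5:104434861-104435160, with a second start at chr5:104435942-104436241).
Thbs2: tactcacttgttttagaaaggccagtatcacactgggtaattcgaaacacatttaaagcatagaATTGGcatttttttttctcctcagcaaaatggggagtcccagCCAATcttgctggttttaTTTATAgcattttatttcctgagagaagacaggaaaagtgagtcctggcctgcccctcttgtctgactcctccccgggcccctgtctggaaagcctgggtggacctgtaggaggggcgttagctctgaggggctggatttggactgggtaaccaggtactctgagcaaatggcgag
Tnc: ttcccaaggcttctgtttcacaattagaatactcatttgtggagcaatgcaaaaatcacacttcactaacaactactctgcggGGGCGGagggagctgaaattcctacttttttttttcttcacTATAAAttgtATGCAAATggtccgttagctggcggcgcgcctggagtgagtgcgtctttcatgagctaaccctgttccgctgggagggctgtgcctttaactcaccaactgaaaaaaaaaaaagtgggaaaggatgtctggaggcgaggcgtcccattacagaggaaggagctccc
Sparc: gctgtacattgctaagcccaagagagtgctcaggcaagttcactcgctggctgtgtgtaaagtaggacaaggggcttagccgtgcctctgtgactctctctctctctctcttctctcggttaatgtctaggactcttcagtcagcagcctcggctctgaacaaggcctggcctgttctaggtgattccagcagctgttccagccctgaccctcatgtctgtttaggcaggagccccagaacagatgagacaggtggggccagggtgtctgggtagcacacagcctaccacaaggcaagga
Spp1, first start: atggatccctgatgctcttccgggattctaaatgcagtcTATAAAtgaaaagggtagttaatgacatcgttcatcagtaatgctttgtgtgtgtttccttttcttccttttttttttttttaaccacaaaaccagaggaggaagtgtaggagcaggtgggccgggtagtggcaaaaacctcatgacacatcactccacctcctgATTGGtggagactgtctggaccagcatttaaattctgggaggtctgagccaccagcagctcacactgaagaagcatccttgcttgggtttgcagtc
Spp1, second start: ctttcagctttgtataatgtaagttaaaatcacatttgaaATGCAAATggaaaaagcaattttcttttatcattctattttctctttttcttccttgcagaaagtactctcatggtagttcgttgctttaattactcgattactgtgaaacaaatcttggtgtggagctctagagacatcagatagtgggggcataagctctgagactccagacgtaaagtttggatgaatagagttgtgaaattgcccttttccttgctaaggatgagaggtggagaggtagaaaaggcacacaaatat
In the Thbs2 window CCAAT stood at -144 and, on the opposite strand, at -186, and TATAAA at -126 on the opposite strand. Tnc held GGGCGG at -167, TATAAA at -126 and ATGCAAAT at -116. A second start of Tnc, whose window (chr4:64046887-64047186) overlaps the first, puts the same matches at -246, -205 and -195. Sparc held none of the 8 motifs. Spp1 held TATAAA at -211 and CCAAT at -46 on the opposite strand at its first start, and ATGCAAAT at -210 at its second. Positions are those of a match's first letter, counted from the transcript start. No motif was thus in all 4 genes' windows, and a match is a run of letters, not a shown binding site. Postn had CCAAT at 25 after its first start, on the opposite strand (chr3:54359017-54359316, plus strand), and TATAAA at -26 before its second start (chr3:54360857-54361156, plus strand). Mfap2 had CCAAT at -105 on the opposite strand and GGAATG at -176 in one window (chr4:141010174-141010473, plus strand), and GGGCGG at -51 and -7 in the other (chr4:141010431-141010730, plus strand).

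Against MEF alone, the label of which names it as the starting cells, 6 of 8 members were called lower in the clones and 0 higher, with 9.33% of 13039 tested probes called lower and 4.7% higher. Of the 6, Mfap2 and Mfap4 passed the filter through MEF alone, with 3 and 4 of the 4 clones at the floor, so they had to differ and are no support for the count. This comparison shares the clones and MEF with the one above, so it is no second line of evidence. The lone MEF array was assumed to vary as the clones do. The differences were -8.44 ± 0.76 for Postn (limma adjusted p = 0.0124), -8.15 ± 0.29 for Mfap2 on floored values (0.00141), -6.10 ± 0.55 for Thbs2 (0.0126), -5.49 ± 0.59 for Tnc (0.0176) and -2.30 ± 0.38 for Fn1 (0.0391), each ± SE. Mfap4 was at least 46.7-fold lower (limma adjusted p = 0.000459), where all 4 clones were at the floor and so had no spread of their own, and the p rests on the floor. Sparc (-3.73 ± 0.83, limma adjusted p = 0.0665) and Spp1 (-1.75 ± 0.47, 0.0937) did not pass. The Fn1 call was lost in 10 of 16 alternative settings, the Thbs2 call in 3. The median of the members was -5.52, against 0.04 over all tested probes. Without 3-factor clone 1 the count of calls was 3 (Postn, Mfap2, Mfap4), and without 3-factor clone 2 it was 3 (Thbs2, Mfap2, Mfap4). With all 9 arrays in the fit it was 2 (Thbs2 and Tnc).

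**Figure D2:**
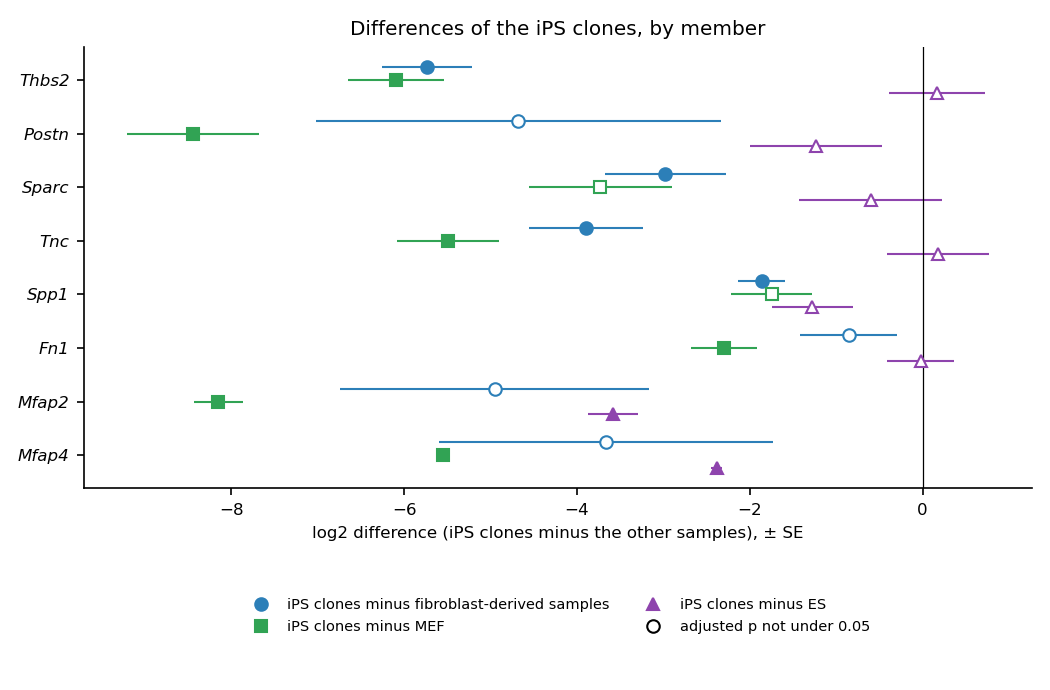
Log2 differences of the iPS clones minus the fibroblast-derived samples (blue circles), minus MEF (green squares) and minus ES (purple triangles), with SE bars, for the 8 genes on the vertical axis; filled symbols have a limma adjusted p under 0.05. The blue and green symbols all lie below 0, and for Fn1, Thbs2 and Tnc the difference from ES lies between -0.02 and 0.18.

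Against ES cells, 2 of 8 members were called lower in the clones and 0 higher, with 9.42% of 13199 tested probes called lower and 4.04% higher. Both, Mfap2 and Mfap4, passed the filter through the single ES array and were at the floor in 3 and 4 of the 4 clones, so their p-values rest on the floor and on 1 array. The floored difference in Mfap2 was -3.58 ± 0.29 (SE; limma adjusted p = 0.00816), and its adjusted p was 0.0555 and 0.0541 without 3-factor clone 1 or 2. Mfap4 was at least 5.21-fold lower (limma adjusted p = 0.000689), again with all clones at the floor. The clones' values lay on both sides of ES for Thbs2 (0.17 ± 0.56, limma adjusted p = 0.863), Tnc (0.18 ± 0.59, 0.866), Sparc (-0.60 ± 0.83, 0.685) and Fn1 (-0.02 ± 0.38, 0.976). All 4 clones were below ES in Spp1 (ES 6.72; difference -1.28 ± 0.47, limma adjusted p = 0.176) and in Postn (ES -2.90; -1.24 ± 0.76, 0.37). These did not pass the test, which does not show that the levels were alike. ES were grown on STO fibroblasts, and the part of feeder RNA in their values was not tested. With all 9 arrays in the fit neither call held (adjusted p 0.644 for Mfap2 and 0.809 for Mfap4).

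Among the clones, the 3-factor pair was set against the 4- and 10-factor clones (n = 2 each). None of the 7 members tested was called (0 of 7), and limma called 0.0148% of 13541 tested probes in either direction, with 3072 at an unadjusted p under 0.05. With so few calls on the whole array, the lack of a call says nothing on whether a member differed. Sparc was lower in both 3-factor clones (difference -1.39 ± 0.22 SE, limma adjusted p = 0.128), as was Thbs2 (-0.90 ± 0.21, 0.169), while Postn (1.05 ± 0.47, 0.324) and Fn1 (0.58 ± 0.19, 0.236) were higher in both. Tnc (-0.36 ± 0.56), Spp1 (0.39 ± 0.42) and Mfap2 (-0.28 ± 0.24) overlapped. Mfap4 was not tested, being at the floor in all 4. Sparc was called with the normexp background correction (-1.42, adjusted p = 0.0238). The number of factors and the scan session cannot be told apart here.

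Pairs of single arrays have no replicate check and no test. Of the 8 members, 6 were at least 5-fold lower in ES than in MEF, where 5.63% of all probes were. Postn was 147-fold, Thbs2 77-fold, Tnc 50.7-fold, Mfap2 23.7-fold, Mfap4 8.96-fold and Sparc 8.75-fold lower in ES than in MEF. Fn1 was 4.84-fold and Spp1 1.39-fold lower.

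The 4-factor clone was at least 5-fold lower than unselected MEF, which got the same number of factors without selection, in 6 members, against 7.05% of all probes. Postn was at least 1680-fold lower, Mfap4 at least 552-fold, Mfap2 at least 378-fold, Thbs2 84.7-fold, Tnc 17.3-fold and Sparc 11.1-fold lower in the clone than in unselected MEF. Spp1 was 4.52-fold and Fn1 2.07-fold lower. The 10-factor clone was not 5-fold from the 4-factor clone in any of 7 members (3.14% of all probes were, in either direction), and the widest gap was Tnc, 2.31-fold higher with 10 factors.

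Unselected MEF stood close to MEF or above it in most members. Mfap4 was 11.8-fold higher, the only member at least 5-fold apart (1 of 8, where 3.47% of all probes were higher by that much and 1.41% lower). Postn was 3.09-fold, Thbs2 1.73-fold, Sparc 1.61-fold and Mfap2 1.21-fold higher in unselected MEF than in MEF. Tnc was 3.49-fold and Fn1 2.81-fold lower, and Spp1 was 1.03-fold higher. Postn, Mfap4, Thbs2, Sparc and Mfap2 had their highest level of the 9 samples in unselected MEF, while Tnc and Fn1 were highest in MEF. Summed signal of the 8 macrophage markers was 7.63 in unselected MEF and 0.854 in MEF, and its part in these differences was not tested.

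The transformed and immortalised lines lacked a part of the set. NIH3T3 HRasV12 cells were at least 5-fold lower than MEF in 4 members, against 5.8% of all probes: Mfap2 (at least 313-fold), Postn (192-fold), Mfap4 (at least 46.7-fold) and Tnc (9.94-fold). Their Sparc was 4.86-fold, Fn1 2.56-fold and Thbs2 1.54-fold lower, and Spp1 was 1.32-fold higher. The immortalised MEF line was at least 5-fold lower than MEF in 4 members too, against 6.88% of all probes: Postn (at least 544-fold), Mfap4 (at least 46.7-fold), Mfap2 (27.3-fold) and Fn1 (7.56-fold). Its Thbs2 was 3.09-fold, Sparc 2.69-fold and Tnc 2.40-fold lower, and Spp1 was 1.01-fold higher. Both lines thus were low in Postn, Mfap2 and Mfap4 and kept Thbs2, Tnc, Sparc and Spp1 above every clone. Scan session and cell line cannot be told apart in these pairs.

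**Figure D3:**
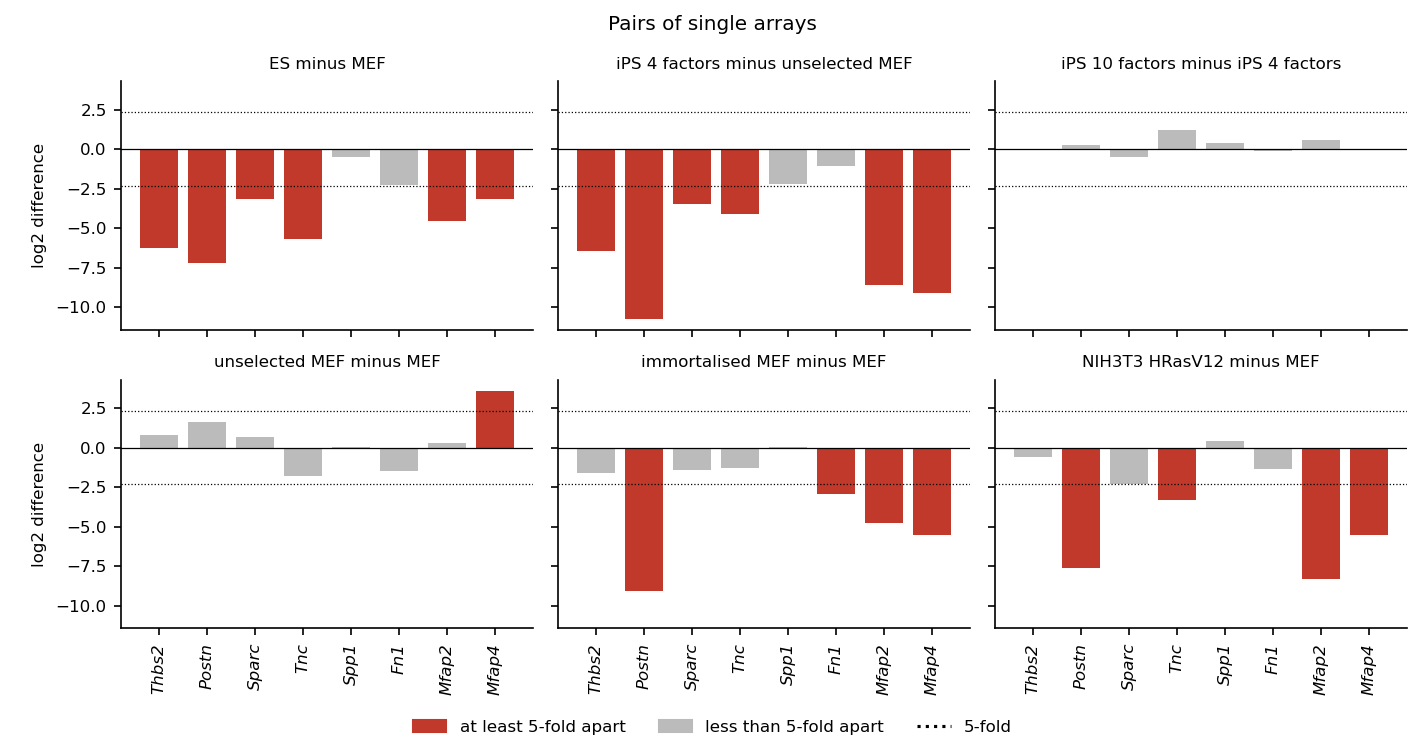
Log2 difference between 2 single arrays (vertical axes) for the 8 genes (horizontal axes), 1 panel for each pair; red bars are at least 5-fold apart and dotted lines mark 5-fold, with values at the floor counted as the floor. In all 6 members are red in ES minus MEF and in the 4-factor clone minus unselected MEF, and none is in the 10-factor minus the 4-factor clone.

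The order of the levels was read with the scanner program's error, a technical error of 1 spot. Thbs2 levels ran, high to low, in the order unselected MEF, MEF, NIH3T3 HRasV12, immortalised line, then the 4-factor clone, the 10-factor clone, ES and 3-factor clones 1 and 2. The step of 3.98 from the immortalised line to the 4-factor clone was the largest, and the 4 steps below it were within the 95% range of the combined error. For Postn the step of 7.20 from MEF down to ES was the largest, and ES and 3-factor clone 1 did not differ beyond the error. Sparc, by contrast, had a step of 0.50 between NIH3T3 HRasV12 cells and the 4-factor clone and a larger one of 1.09 between the 10-factor clone and 3-factor clone 2. For Tnc, ES lay between 3-factor clone 1 and the 4-factor clone, within the error of each. In Spp1 the steps among the 4 fibroblast-derived samples were within the error, as were those among the lowest 3 clones. The step from MEF down to ES (0.47) was beyond it. Fn1 differed beyond the error in 2 of 8 steps, MEF above NIH3T3 HRasV12 cells and 3-factor clone 1 above 3-factor clone 2. Over the 9 samples Fn1 spanned 7.56-fold and Spp1 5.78-fold, while Sparc spanned 35.8-fold, Tnc 62.8-fold and Thbs2 191-fold. For Postn, Mfap2 and Mfap4 the span is at least 1680-fold, 378-fold and 552-fold, since their lowest samples were at the floor.

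Genes with the most similar pattern were taken by Pearson's correlation of log2 values over the 9 arrays, among 10498 probes. It is a description over points that share arrays and fall into high and low samples. Slc39a13 was closest to Thbs2 (0.99), F2r to Tnc (0.99) and Tceal9 to Sparc (0.97), and Col1a2 was also among the closest 3 for Tnc (0.97). Ripk2 was closest to Spp1 (0.95) and Cpa6 to Fn1 (0.96). Rflna was closest to Mfap4 (0.997), Rasl12 to Postn (0.98) and Cstad to Mfap2 (0.98). Rasl12 was among the closest 3 for Mfap4 too (0.99).

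Genes around the members were read from 4 lists, none chosen for how they moved here, though earlier results of these data were known. Of 15 other matricellular genes tested in the first comparison, 2 fell and 0 rose, where 4.73% of all tested probes were called lower and 4.19% higher: Tgfbi, a periostin relative (-3.76 ± 0.72 SE, limma adjusted p = 0.0188), and Matn2, a matrilin that binds collagen networks (-3.75 ± 0.36, 0.00194). Matn2 was -2.86 to -2.03 in the clones, against 0.57 to 2.14 in the fibroblast-derived samples. Of 23 genes of microfibrils and elastic fibres, 5 fell and 0 rose. The largest were Emilin1, an elastic fibre glycoprotein (-3.60 ± 0.51, limma adjusted p = 0.00687), the lysyl oxidase relatives Loxl1 (-2.55 ± 0.51, 0.0225) and Loxl3 (-2.16 ± 0.34, 0.0101), and Efemp2, a fibulin needed for elastin assembly (-2.0 ± 0.34, 0.0125). The medians of these lists were -1.71 and -1.59.

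Of 15 receptors tested in the first comparison, 3 fell and 0 rose, where 4.73% of all tested probes were called lower and 4.19% higher. Itga8 encodes an alpha subunit that binds fibronectin, tenascin and osteopontin (-2.90 ± 0.42 SE on floored values, limma adjusted p = 0.0075), Itga5 encodes the fibronectin receptor's alpha subunit (-2.11 ± 0.43, 0.024), and Itgb1 encodes the beta 1 subunit both pair with (-1.20 ± 0.19, 0.00917). Itgb1 was 1.14 to 1.56 in the clones, against 2.48 to 2.81 in the fibroblast-derived samples. Itga8 was at the floor in all 4 clones and Itga5 in 3 of them, so both entered the test through the fibroblast-derived samples and their sizes and p-values rest on the floor. Of 14 genes of TGF-beta signalling, 1 fell and 0 rose, a share near that of all probes: Tgfb1, a ligand that induces several members in fibroblasts (-3.66 ± 0.56, limma adjusted p = 0.00897), with both 3-factor clones at the floor. The medians were -0.95 for the receptors and -0.34 for TGF-beta signalling. Against MEF, 9 of 15 matricellular, 10 of 23 microfibril, 5 of 15 receptor and 3 of 14 TGF-beta genes were called lower and none higher, where 9.33% of all probes were lower and 4.7% higher. Among these calls, Thbs4, Comp, Smoc2, Mfap5, Eln, Itga5 and Itga8 passed the filter through MEF alone, with most or all clones at the floor. They are no support for the counts. Ccn3 was at the floor in all 4 clones too, so its call rests on the floor. Against ES, where 9.42% of all probes were lower and 4.04% higher, the counts lower and higher were 3 and 2 of 14 matricellular genes, 2 and 0 of 22 microfibril genes, 2 and 2 of 16 receptors and 0 and 1 of 13 TGF-beta genes. In this comparison Thbs4, Comp, Itga8 and Itga9 were at the floor in all 4 clones, and Mfap5 in most of them. These genes passed the filter through the single ES array alone. Any lower call on them rests on the floor and on 1 array, and is no support for the counts.

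**Figure D4:**
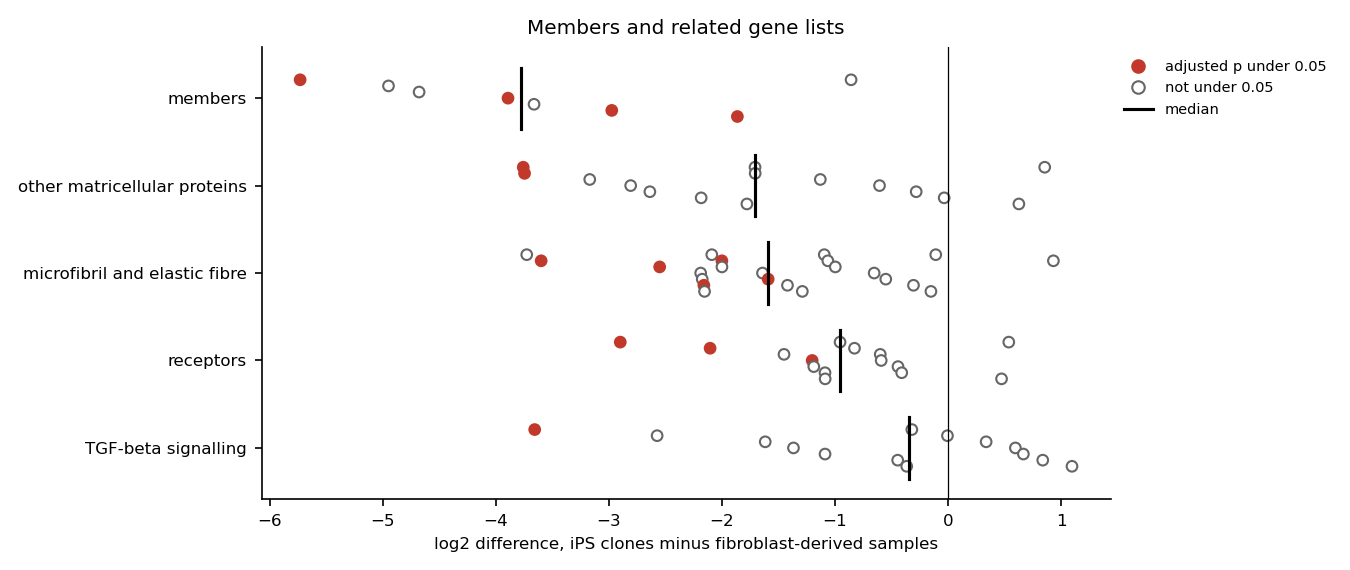
Log2 difference, iPS clones minus fibroblast-derived samples (horizontal axis), for the 8 members and for 4 lists of related genes (rows); each circle is a gene, red where the limma adjusted p is under 0.05, and the black bar is the list's median. The median is -3.78 for the members and -0.34 for TGF-beta signalling.

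Thbs1 is represented at best by 1 probe outside the rule, annotated by a RIKEN clone and described in words as thrombospondin 1 (chr2:117628841-117628900 as the files give it, build not stated). It was well above background in unselected MEF (-2.50) and MEF (-2.98) alone and was neither counted nor tested. Another probe carries the symbol Spp1 but describes a sphingosine-1-phosphate phosphohydrolase on chromosome 12, and was left out. The Spp1 probe used lies at chr5:103476641-103476700, and the Thbs2, Tnc and Sparc probes at chr17:12721389-12721448, chr4:63051530-63051590 and chr11:55147353-55147412, again as the files give them. The Postn, Fn1, Mfap2 and Mfap4 probes are given on chromosomes 3, 1, 4 and 11. The files do not say which exon a probe covers or on which build these coordinates stand.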

How the data were processed

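Cy3-labelled RNA from 9 samples was hybridised once per sample, as the labels state. Intensity values in the deposited files are the processed signal, linear and background-subtracted, which the authors obtained from the scans with Agilent Feature Extraction (8.5.1.1, from the file headers). The series' value table held the same signal within 0.5% and served as an alternative.

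Control spots (736) and outlier spots (0 to 9 an array) were left out, repeated spots averaged, each array divided by its 75th percentile, floored at 3.63% of it (-4.78 on the log2 scale) and log2 taken. A probe was tested if 50% or more of the arrays in either compared group were well above background. Tests used limma 3.58.1 in R 4.3.3 (lmFit and eBayes) and were two-sided, with p-values adjusted by Benjamini-Hochberg over all tested probes at a threshold of 0.05. Names came from RefSeq accessions and deposited descriptions, which named 16201 probes and left 4667 unnamed. All members were named. Single arrays were compared by a fold of at least 5, with the brighter side well above background. Figures were drawn from these values.

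The test was run on simulated data that gave both sides the clones' centre and spread. The fibroblast-derived samples' own spread was thus not simulated. Simulated differences of 3 on the log2 scale, lower or higher, were recovered in 96% in the first comparison. Against MEF and against ES fewer were recovered. Between the 3-factor and the other clones 0% were recovered. Members and gene lists were chosen with earlier results of these data known. Of the related genes, up to 4 a list with the largest differences among those that passed were named. The gene brought into the immortalised line is not reported here. Alternatives changed the background correction, scaling, floor, filter, arrays in the fit and scan. The number of arrays limits the precision.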

Additional observations from a re-analysis of the deposited data

Results flagged for a closer look

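With 4 samples in a group, a sample counted as apart when its gap to the nearest other exceeded 0.829 of the group's range. Over 15 groups of members' values this held in 2, and chance gives about 1 in 20. Spp1 was at 7.59 in NIH3T3 HRasV12 cells, above the other 3 fibroblast-derived samples. The gap to the next of them, unselected MEF (0.36), was within the 95% range of the scanner program's combined error. Mfap2 was at -4.22 in the 10-factor clone, where the other 3 clones were at the floor, so that this gap is set by the floor.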

How the results depend on the processing

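The count of members called lower against the fibroblast-derived samples (4) was 2 to 5 when 1 array was left out and 0 within the first scan session. Against MEF (6) it was 3 to 5 with 1 array left out, 2 with all 9 arrays in the fit, 3 with the 3-factor clones averaged and 0 within that session. Against ES (2) it was 1 to 2 with 1 array left out, 1 with normexp, 1 with the 3-factor clones averaged, 0 with all arrays in the fit and 0 within that session. Between the 3-factor and the other clones (0) it was 1 with normexp, and 0 to 0 with 1 array left out. Unselected MEF and MEF differed in 3 members at 3-fold. No probe at all was called within the session. The cause of these moves was not tested.

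Of 503 single differences under an alternative, 438 kept direction and side, 48 lost the call, 6 gained it and 11 changed sign, all among differences that never passed. Against ES these were Thbs2 (-0.084), Tnc (-0.069) and Fn1 (0.055) with normexp, Fn1 with median scaling (0.40), and Sparc with the scan block and within the session (0.096 each). With 1 array left out, the differences from ES ranged from -0.19 to 0.088 for Fn1 and from -0.085 to 0.34 for Tnc. Those between the clones ranged from -0.96 to 0.25 for Tnc and from -0.086 to 0.86 for Spp1. The cause of these changes was not tested.

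Median scaling moved the median of all probes to -0.27 against the fibroblast-derived samples, to 0.27 against ES and to 0.22 among the clones. It made 71% of all called probes lower against the fibroblast-derived samples, where 53% were in the main setting, 78.3% against MEF, where 66.5% were, and 63.5% against ES, where 70% were. No paired analysis was possible because the labels give the groups no shared replicate numbers beyond 1. Each member had 1 probe, so no other probe could be tried. Members at the floor have bounds only.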
